A study of Rattus norvegicus with 9 samples.

Results

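The 10 genes described here make and consume nicotinamide adenine dinucleotide (NAD). They were taken by name, with earlier results of these data known, from a table of 35843 rat genes. They are Nampt (ENSRNOG00000009754), Nmrk1 (ENSRNOG00000012665), Nmrk2 (ENSRNOG00000042897), Nmnat1 (ENSRNOG00000015962), Nmnat3 (ENSRNOG00000013585), Nnt (ENSRNOG00000026842), Sirt3 (ENSRNOG00000013828), Sirt5 (ENSRNOG00000017866), Cd38 (ENSRNOG00000003069) and Parp1 (ENSRNOG00000003084). All 10 were found.

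RNA-seq was performed on the left ventricle of 9 adult male Sprague-Dawley rats at day 28, with 3 rats in each group. Group Sham had the same chest operation as the other groups but without tying the coronary artery, and received saline by gavage. Group MI had a permanently tied left anterior descending coronary artery (ligation), which causes a myocardial infarction, and also received saline. Group DAPA had the same ligation and was given dapagliflozin, an inhibitor of the renal glucose transporter SGLT2, at 1 mg/kg each day from the first day. According to the study's methods, molecular work mainly used the border of the infarct with the scar cut away, and the matching site in Sham hearts, while its account of the RNA-seq names left ventricles and, for both ligated groups, infarcted myocardium. Each sample's title names a pair of entries, and what these are was not stated; each sample is called a rat here. Values are FPKM, sequenced fragments divided by transcript length and by a library-size factor. FPKM is per length, so levels of different genes can be set side by side within a rat, while comparisons between rats rest on the authors' library-size factor.

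NAD carries electrons between metabolic reactions and is also a substrate that some enzymes break down. Most cells rebuild it from nicotinamide, in a salvage route whose slow step is catalysed by Nampt, or from nicotinamide riboside, which the Nmrk kinases phosphorylate; the Nmnat enzymes then complete the dinucleotide. Sirtuins, poly(ADP-ribose) polymerases and Cd38 cleave it and release nicotinamide. Heart muscle has a dense mitochondrial network and keeps a large mitochondrial NAD pool.

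The libraries held 13597239 to 17210909 reads, recovered from the steps of the FPKM values. Transcripts of the mitochondrial genome took 61.1% to 66.9% of the reads in Sham rats, 7.07% to 19.1% in MI rats and 17.5% to 32.0% in DAPA rats. The 17 cardiomyocyte markers measured were all detected in every group, as the heart label requires, but in uneven amount: their summed level was 7832 to 11446 FPKM in Sham, 2506, 6587 and 12135 in MI replicates 2, 1 and 3, and 9419 to 19505 in DAPA. Fibroblast and matrix markers, called higher in 10 of 10 after MI by limma, summed to 525 to 850 FPKM in Sham, 4160 to 8215 in MI and 2663 to 4553 in DAPA. Macrophage markers, called higher in 11 of 11, summed to 161 to 509, 1993 to 3599 and 1087 to 2032, and endothelial markers, called lower in 5 of 6, to 887 to 1068, 238 to 315 and 328 to 369. Fewer cells of a type and less RNA per cell cannot be told apart in bulk tissue.

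The stretches upstream of the gene start are shown for the 4 members whose values differ most between groups: Nmnat1 and Sirt5, both lower after MI, and Nmrk2 and Nnt, both highest in DAPA rats. RefSeq lists promoters for 9 of the 10 members, on assembly GRCr8. Each line gives the 250 bases before the start, 5′ to 3′ along the gene, and capitals mark CCAAT or its reverse complement and, in Nnt alone, the E-box CACGTG.
Nmnat1, chr5:165211214-165211463, minus strand: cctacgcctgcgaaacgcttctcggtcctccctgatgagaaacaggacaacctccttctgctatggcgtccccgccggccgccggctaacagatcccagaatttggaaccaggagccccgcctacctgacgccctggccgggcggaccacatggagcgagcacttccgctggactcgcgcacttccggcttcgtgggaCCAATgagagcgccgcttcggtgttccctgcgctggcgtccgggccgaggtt
Sirt5, chr17:21543057-21543306, minus strand: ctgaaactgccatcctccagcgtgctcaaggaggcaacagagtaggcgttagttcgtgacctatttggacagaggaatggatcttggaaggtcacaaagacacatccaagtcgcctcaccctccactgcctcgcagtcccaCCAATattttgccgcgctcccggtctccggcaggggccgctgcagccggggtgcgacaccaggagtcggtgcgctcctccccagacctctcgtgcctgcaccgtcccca
Nmrk2, chr7:9165317-9165566, plus strand: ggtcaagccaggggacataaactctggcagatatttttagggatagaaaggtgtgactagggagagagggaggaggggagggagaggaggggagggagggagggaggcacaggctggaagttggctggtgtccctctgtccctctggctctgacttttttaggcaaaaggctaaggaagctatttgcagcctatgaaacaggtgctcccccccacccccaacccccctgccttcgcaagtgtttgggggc
Nnt, chr2:53237311-53237560, minus strand: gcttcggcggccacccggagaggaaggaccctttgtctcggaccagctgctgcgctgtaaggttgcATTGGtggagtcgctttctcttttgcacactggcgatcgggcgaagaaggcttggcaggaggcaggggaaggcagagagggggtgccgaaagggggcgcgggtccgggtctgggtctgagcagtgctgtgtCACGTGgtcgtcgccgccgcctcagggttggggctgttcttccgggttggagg
CCAAT was sought on both strands and was found in 5 of the 9 members, Nmrk1, Nmnat1, Nnt, Sirt3 and Sirt5, against 34.0% of 33469 rat promoters of the same length. In Nmnat1 it began 52 bases before the start and in Sirt5 109 bases before it. CACGTG was held by Nnt, 53 bases before the start, and by 5.59% of all promoters. The element TCAAGGTCA, the site of oestrogen-related receptors, was held by Nmnat3 and by 0.388% of all promoters. Neither TATAAA (12.9% of promoters) nor the MEF2 motif (3.41%) was in the window of any of the 9. A match of letters is a description of the window and not evidence of binding.

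Infarction was compared with Sham surgery to show what differed in the ventricle at day 28. Nmnat1, the nuclear enzyme that completes NAD, and Sirt5, a mitochondrial sirtuin, fell after MI. Nmnat1 went from 23.6 ± 3.55 to 5.67 ± 1.45 FPKM and Sirt5 from 54.6 ± 5.68 to 24.9 ± 5.06 FPKM (mean ± SD, n = 3). The other 8 members did not pass the test. By limma on log2(FPKM + 1) with a Benjamini-Hochberg adjusted p under 0.05, 2 of 10 members were called, 0 higher and 2 lower. Over all 13485 genes tested 39.0% were called, 19.5% higher and 19.5% lower, so 2 of 10 is not a large share. The median log2 fold change of the 10 members was 0.08 and that of all genes was -0.01.

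In DAPA rats compared with MI rats, the question was what treatment from the first day changed. No member passed, with 0 of 10 called by limma and 0 of 10 by limma-voom on the recovered reads, and of all 13251 genes 0% were called by limma. At an unadjusted p under 0.05, 3 members were counted, Nmrk2 and Sirt5 higher and Nmrk1 lower, against 8.49% of all genes. Nmrk1 entered the test through its level in the MI rats, so its place in this count is no support. Adding the study's limit of a log2 fold change over 1 left Nmrk2 alone, against 2.06% of all genes. The median log2 fold change of the members was 0.33 and that of all genes -0.02.

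Comparing DAPA rats with Sham rats shows which differences were present under treatment. Nampt, Nmrk2, Nnt and Parp1 were higher and Nmnat1 was lower: 5 of 10 members were called by limma (adjusted p under 0.05), 4 higher and 1 lower. Of 13359 genes 28.6% were called, 14.5% higher and 14.1% lower. These comparisons share rats: the MI rats enter the first and the second, and the Sham rats the first and the last, so each is given by its own values.

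**Figure D1:**
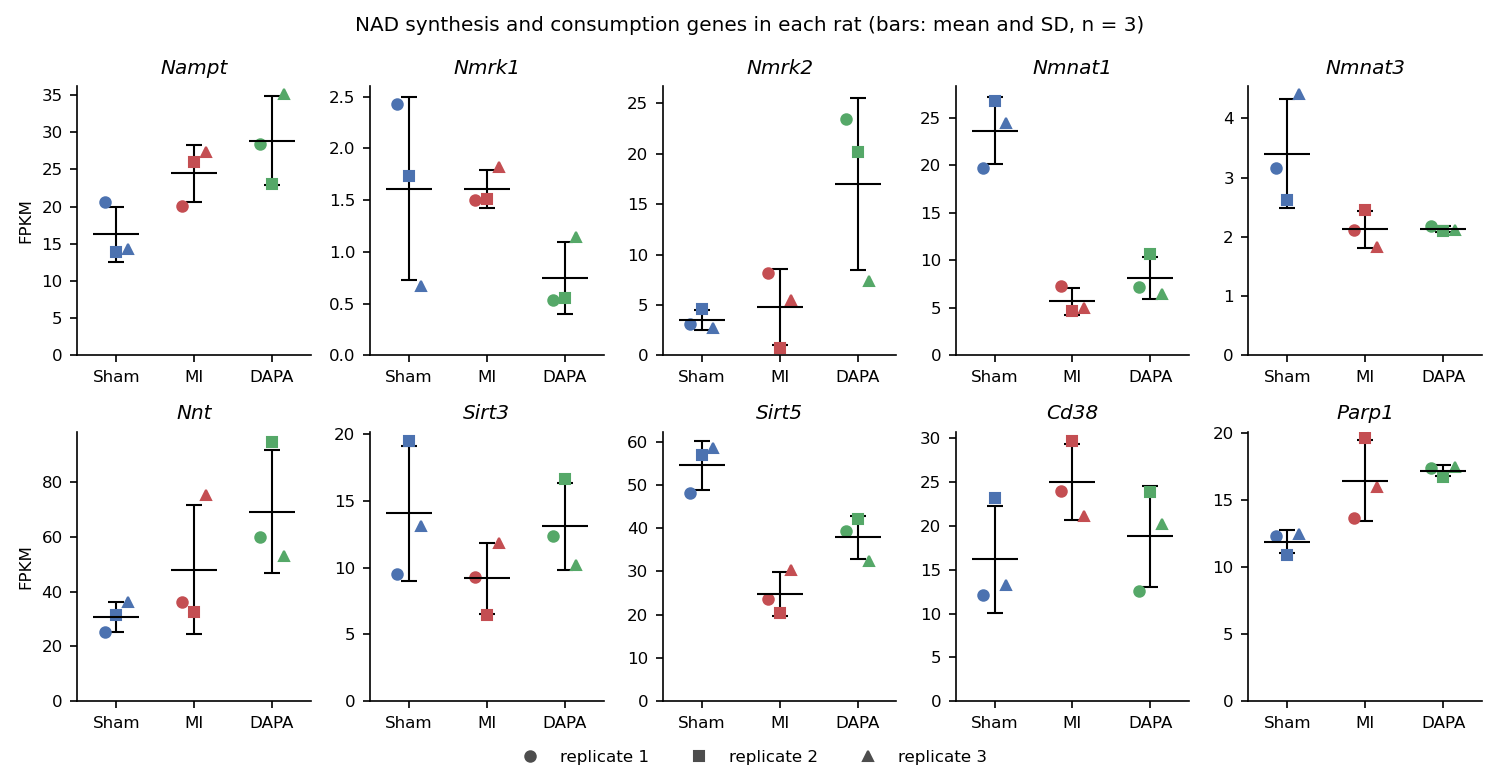
FPKM of each of the 10 genes in each rat (y axis, starting at 0) for the Sham, MI and DAPA groups (x axis), with the replicate shown by the symbol and mean ± SD by the bars. Nmnat1 and Sirt5 are lower in every MI rat than in every Sham rat, and Nmrk2 reaches 20.1 and 23.5 FPKM in 2 DAPA rats.

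Nampt, the slow step of nicotinamide salvage, was at 20.6, 13.9 and 14.3 FPKM in Sham replicates 1 to 3, 20.1, 26.0 and 27.3 in MI, and 28.4, 23.1 and 35.1 in DAPA. MI and Sham overlapped by 1 rat on each side, while every DAPA rat was above every Sham rat. The log2 fold change was 0.57 ± 0.20 (SE) for MI against Sham (limma adjusted p = 0.0596), 0.22 ± 0.20 for DAPA against MI (adjusted p = 0.692) and 0.79 ± 0.22 for DAPA against Sham (adjusted p = 0.0317). The last call was kept in 2 of 6 fits with 1 rat left out, with log2 fold changes of 0.64 without DAPA replicate 3 to 0.96 without Sham replicate 1.

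Of the nicotinamide riboside kinases, Nmrk2 was called higher in DAPA than in Sham and Nmrk1 passed in no comparison. Nmrk2, the form enriched in muscle, was at 3.09, 4.59 and 2.74 FPKM in Sham, 8.17, 0.767 and 5.53 in MI and 23.5, 20.1 and 7.32 in DAPA, from 23 to 657 reads. The MI rats lay on both sides of the Sham range, DAPA replicates 1 and 2 were above all other rats, and DAPA replicate 3 was below MI replicate 1. Nmrk2 rose 4.88-fold in mean FPKM in DAPA against Sham (log2 fold change 1.88 ± 0.40, limma adjusted p = 0.0135), and the call was kept in 6 of 6 fits that left out 1 rat. Against MI, the mean was 3.52-fold higher (log2 fold change 1.78 ± 0.68, limma adjusted p = 0.558), with a 95% interval of 0.17 to 3.39. MI replicate 2, which had the lowest Nmrk2 and the lowest cardiomyocyte markers, set much of that value, and without it the log2 fold change was 1.07.

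Nmrk1, the widely expressed form, was low throughout at 2.43, 1.73 and 0.673 FPKM in Sham, 1.502, 1.51 and 1.82 in MI and 0.539, 0.553 and 1.15 in DAPA. The DAPA rats were all below the MI rats, but Sham replicate 3 lay within the DAPA range. The reads behind it were only 10 to 59 per library, and it passed the filter in DAPA against MI through the MI rats and 1 DAPA rat. Its log2 fold change there was -0.60 ± 0.21 (limma adjusted p = 0.558), a scale that understates differences of genes this low. MI and Sham had a log2 fold change of 0.06 ± 0.29 (limma adjusted p = 0.891).

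Nmnat1 showed the steepest fall of the members. It was at 19.8, 26.7 and 24.5 FPKM in Sham, 7.33, 4.66 and 5.01 in MI and 7.23, 10.7 and 6.47 in DAPA, from 173 to 577 reads. All 6 infarcted hearts were below all 3 Sham hearts, and MI and DAPA overlapped. The log2 fold change was -1.90 ± 0.20 for MI against Sham (limma adjusted p = 0.00134), -1.45 ± 0.22 for DAPA against Sham (adjusted p = 0.00430) and 0.45 ± 0.23 for DAPA against MI (adjusted p = 0.559). Both calls were kept in 6 of 6 fits that left out 1 rat. Endothelial markers fell in the same hearts, and their part in the values of Nmnat1 and Sirt5 was not tested.

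Nmnat3, the mitochondrial form, was much lower, at 3.17, 2.62 and 4.42 FPKM in Sham, 2.11, 2.45 and 1.83 in MI and 2.18, 2.09 and 2.12 in DAPA. Every infarcted heart was below every Sham heart, yet the log2 fold change of -0.48 ± 0.21 for MI against Sham did not pass (limma adjusted p = 0.116). MI and DAPA means were alike at 2.13 FPKM, with a 95% interval of the log2 difference from -0.37 to 0.38.

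Nnt, the inner-membrane transhydrogenase that uses NADH and the proton gradient to make NADPH, was at 25.2, 31.3 and 36.0 FPKM in Sham, 36.1, 32.7 and 75.1 in MI and 60.0, 94.8 and 52.9 in DAPA. All DAPA rats were above all Sham rats, and MI replicate 3 was within the DAPA range. The log2 fold change was 1.11 ± 0.25 for DAPA against Sham (limma adjusted p = 0.0159), a call kept in 6 of 6 fits that left out 1 rat. It was 0.54 ± 0.32 for MI against Sham (adjusted p = 0.223) and 0.58 ± 0.36 for DAPA against MI (adjusted p = 0.609).

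**Figure D2:**
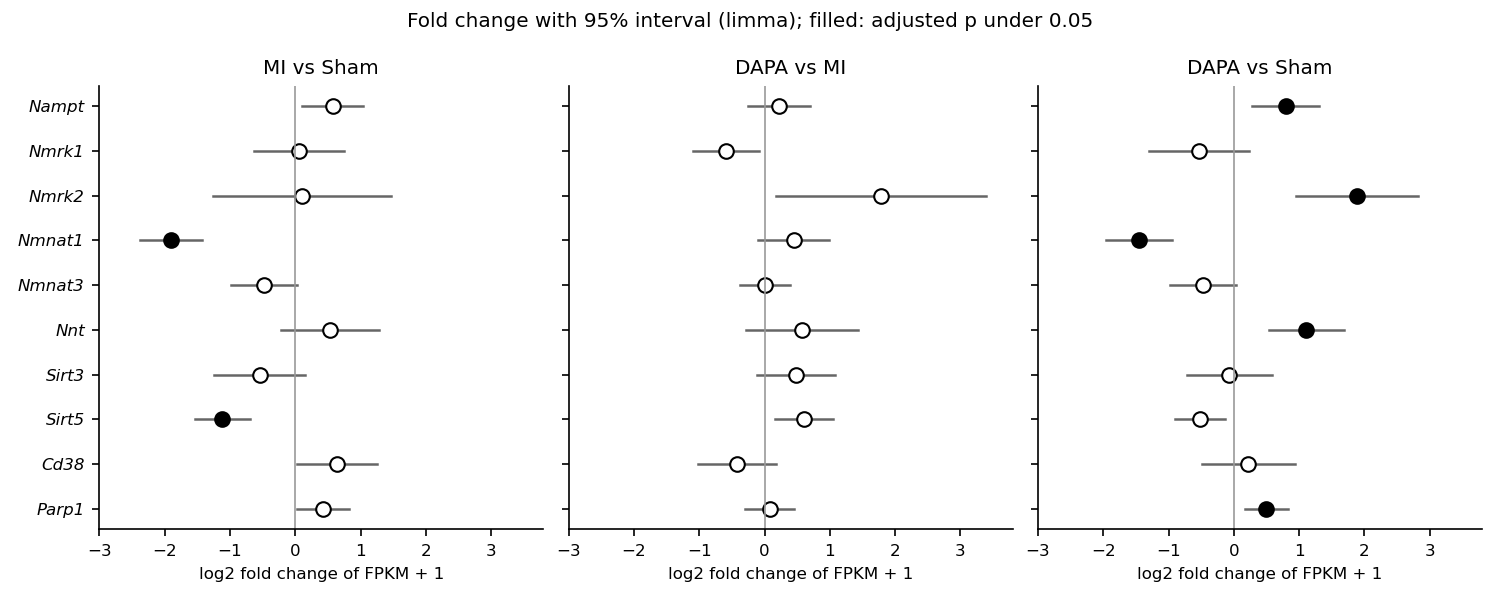
Log2 fold change of FPKM + 1 for each gene (x axis) with its 95% interval from limma, in MI against Sham, DAPA against MI and DAPA against Sham; filled circles have an adjusted p under 0.05. Nmnat1 and Sirt5 are filled in the first panel, none in the second, and Nampt, Nmrk2, Nmnat1, Nnt and Parp1 in the last; Sirt5 changes sign against Sham when all libraries are given the same total.

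Of the mitochondrial sirtuins, Sirt5, which removes succinyl, malonyl and glutaryl groups from lysines, was at 48.1, 57.0 and 58.6 FPKM in Sham, 23.7, 20.5 and 30.4 in MI and 39.4, 42.0 and 32.4 in DAPA. The 3 groups did not overlap in FPKM, with DAPA between MI and Sham. Relative to the cardiomyocyte markers of the same rat, described below, the DAPA mean was instead the lowest. Its log2 fold change was -1.12 ± 0.18 for MI against Sham (limma adjusted p = 0.00416), a call kept in 6 of 6 fits that left out 1 rat. DAPA was higher than MI by a log2 fold change of 0.60 ± 0.19 (limma adjusted p = 0.558) and lower than Sham by -0.52 ± 0.17 (adjusted p = 0.0522).

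Sirt3, the main mitochondrial deacetylase, was at 9.53, 19.5 and 13.1 FPKM in Sham, 9.28, 6.47 and 11.8 in MI and 12.4, 16.7 and 10.2 in DAPA. The groups overlapped in every pairing, and no comparison passed: the log2 fold change was -0.54 ± 0.30 for MI against Sham (limma adjusted p = 0.185) and 0.48 ± 0.25 for DAPA against MI (adjusted p = 0.565).

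Among the consumers, Cd38, a surface enzyme that cleaves NAD and is also abundant on plasma cells, was at 12.1, 23.2 and 13.2 FPKM in Sham, 24.0, 29.8 and 21.2 in MI and 12.5, 23.8 and 20.2 in DAPA. Sham replicate 2 and DAPA replicate 2 reached the MI range. The log2 fold change was 0.64 ± 0.26 for MI against Sham (limma adjusted p = 0.0917) and -0.42 ± 0.25 for DAPA against MI (adjusted p = 0.597). B and plasma cell markers summed to 6.07 to 12.8 FPKM in Sham, 35.9, 3855 and 670 in MI replicates 1 to 3 and 11.6 to 16.9 in DAPA, and their part in the values of Cd38 was not tested.

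Parp1, the nuclear polymerase that responds to DNA breaks, was at 12.3, 10.9 and 12.4 FPKM in Sham, 13.7, 19.6 and 16.0 in MI and 17.4, 16.7 and 17.4 in DAPA. Every infarcted heart was above every Sham heart. The log2 fold change was 0.42 ± 0.17 for MI against Sham (limma adjusted p = 0.0868) and 0.50 ± 0.14 for DAPA against Sham (adjusted p = 0.0362). The latter call was lost in each of the 6 fits that left out 1 rat, with limma adjusted p from 0.0665 to 0.114. Fibroblast and macrophage markers rose in the same hearts, and their part in the values of Nampt, Cd38 and Parp1 was not tested.

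The directions against Sham depended on what the libraries were scaled to. Giving all libraries the same summed FPKM moved the median gene to a log2 fold change of 1.28 in MI against Sham, 0.99 in DAPA against Sham and -0.33 in DAPA against MI, where the deposited scaling gave -0.01, 0.01 and -0.02. Of all genes, 2626 were called higher and 2635 lower in MI against Sham as deposited, and 10986 and 278 at the same summed FPKM. At that scaling Nmnat1 had a log2 fold change of -0.47 (limma adjusted p = 0.0828) and Sirt5 0.40 (adjusted p = 0.0608), so both calls were lost; relative to the median gene they were -1.75 and -0.88. The Nmnat1 call in DAPA against Sham was lost too, with a log2 fold change of -0.34 (limma adjusted p = 0.227) at the same summed FPKM. In MI against Sham, scaling to all recovered reads gave -0.88 for Nmnat1 (adjusted p = 0.00666) and -0.03 for Sirt5. Both calls were kept with the mitochondrial genome left out of the total. Nmnat1 was then at -1.93 (limma adjusted p = 0.00147) and Sirt5 at -1.15 (adjusted p = 0.00466). Median-of-ratios scaling also kept both, at -1.89 (limma adjusted p = 0.00134) and -1.11 (adjusted p = 0.00410). Relative to the median gene, Nnt in DAPA against Sham was 1.27 higher at the same summed FPKM and Nmrk2 1.79 higher.

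To set the members beside the cardiomyocyte markers, each member was expressed on the log2 scale relative to the mean of these markers in the same rat. That mean does not separate the number of muscle cells from their RNA, and 10 of 17 markers were called higher in DAPA than in Sham. Nmnat1 was lower after MI relative to these markers as well: it was at -2.68, -2.64 and -2.94 in Sham and at -4.01, -3.40 and -5.54 in MI, a difference of -1.56 with no overlap. Nnt was at -2.33, -2.41 and -2.38 in Sham, -1.71, -0.59 and -1.63 in MI and -2.26, -1.87 and -1.79 in DAPA. For Nnt the Sham rats had an SD of 0.04, the MI rats stood 1.06 above them, and the DAPA rats were between the others with no overlap. So Nnt, whose mean FPKM was highest in DAPA, was lower in DAPA than in MI per cardiomyocyte marker, by 0.66, with MI replicate 2 farthest out.

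Without that rat the difference in Nnt was -0.31, and with the marker median in place of the mean it was -0.53 with overlapping groups. Sirt5 overlapped between MI and Sham on this scale because MI replicate 2 was at -1.27, above the Sham rats at -1.39, -1.55 and -1.68. The other MI rats were at -2.31 and -2.94. The DAPA rats were at -2.87, -3.04 and -2.50 for Sirt5, a difference of -0.63 from MI with overlap. So DAPA was not between MI and Sham on this scale, unlike in FPKM. Nmrk2 was at -5.35, -5.18 and -6.10 in Sham, -3.85, -6.01 and -5.39 in MI and -3.62, -4.11 and -4.64 in DAPA. Nmrk2 thus stayed above Sham in every DAPA rat, by 1.42 on average, and was not apart from MI. Nmrk1 was lower in DAPA than in MI by 2.45 without overlap, but it had passed the filter through its level in the MI rats.

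In MI against Sham 2 of 10 members had groups apart on this scale, against 18.2% of all genes. For DAPA against MI it was 2 of 10, Nnt and Nmrk1, against 12.0%. Nmrk1 passed the filter through its level in the MI rats, so its place in that count is no support. For DAPA against Sham it was 6 of 10, against 44.2%. These 6 were Nmrk2 and Nnt above and Nmnat1, Nmnat3, Sirt3 and Sirt5 below. With 3 rats against 3 the exact two-sided permutation test cannot give a p below 0.1, so none of these 30 differences can pass, adjusted or not. The count in DAPA against MI rose to 8 without MI replicate 3 and to 7 without DAPA replicate 3. Leaving out a rat can only keep or raise this count, so the rise does not measure its stability.

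**Figure D3:**
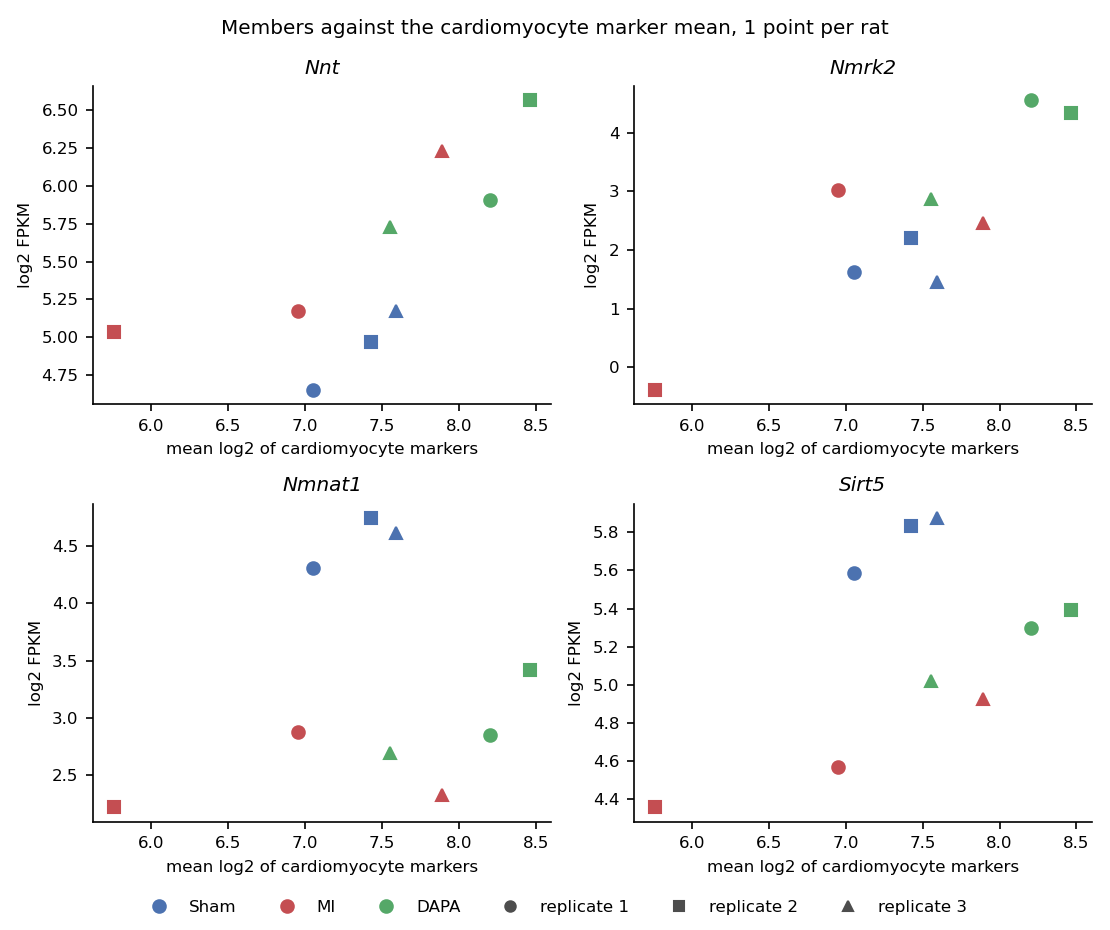
Log2 FPKM of Nnt, Nmrk2, Nmnat1 and Sirt5 (y axis) against the mean log2 level of the cardiomyocyte markers (x axis), 1 point per rat, colour for the group and symbol for the replicate. MI replicate 2 lies far to the left at 5.76, and the Sham rats lie above all infarcted hearts for Nmnat1; of the infarcted hearts, DAPA replicate 3 alone falls inside the Sham range of marker level, 7.05 to 7.59.

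Ratios between members within a rat do not depend on how the libraries were scaled. Nmrk2 over Nmrk1 was at log2 values of 0.35, 1.41 and 2.03 in Sham, 2.44, -0.98 and 1.60 in MI and 5.44, 5.19 and 2.68 in DAPA. DAPA was above both other groups without overlap, by 3.41 over MI and 3.18 over Sham. Few reads of Nmrk1 stand behind this ratio. Nmrk1 also passed the filter through its level in the MI rats, or against Sham mostly in the Sham rats. The differences of this ratio are therefore no support.

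Nmnat3 over Nmnat1 was at -2.64, -3.35 and -2.47 in Sham, -1.80, -0.93 and -1.45 in MI and -1.73, -2.35 and -1.61 in DAPA. Both infarcted groups lay above Sham without overlap, by 1.43 and 0.93. Nnt over Sirt3, both mitochondrial, was at 1.40, 0.68 and 1.46 in Sham, 1.96, 2.34 and 2.67 in MI and 2.28, 2.51 and 2.37 in DAPA. Its infarcted groups stood 1.14 and 1.21 above Sham and overlapped each other.

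Parp1 over Sirt3 was 1.05 higher in MI than in Sham without overlap and overlapped in the other comparisons. Sirt3 over Sirt5 and Nmrk2 over Nampt overlapped between all groups. Of the 18 differences, 6 ratios in 3 comparisons, 7 had groups apart, each with an exact two-sided permutation p of 0.1, the smallest possible. These 7 include Nmrk2 over Nmrk1 in DAPA against MI and in DAPA against Sham, with the limit given above. The share of other gene pairs with groups apart was not computed, so this count describes these ratios only.

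**Figure D4:**
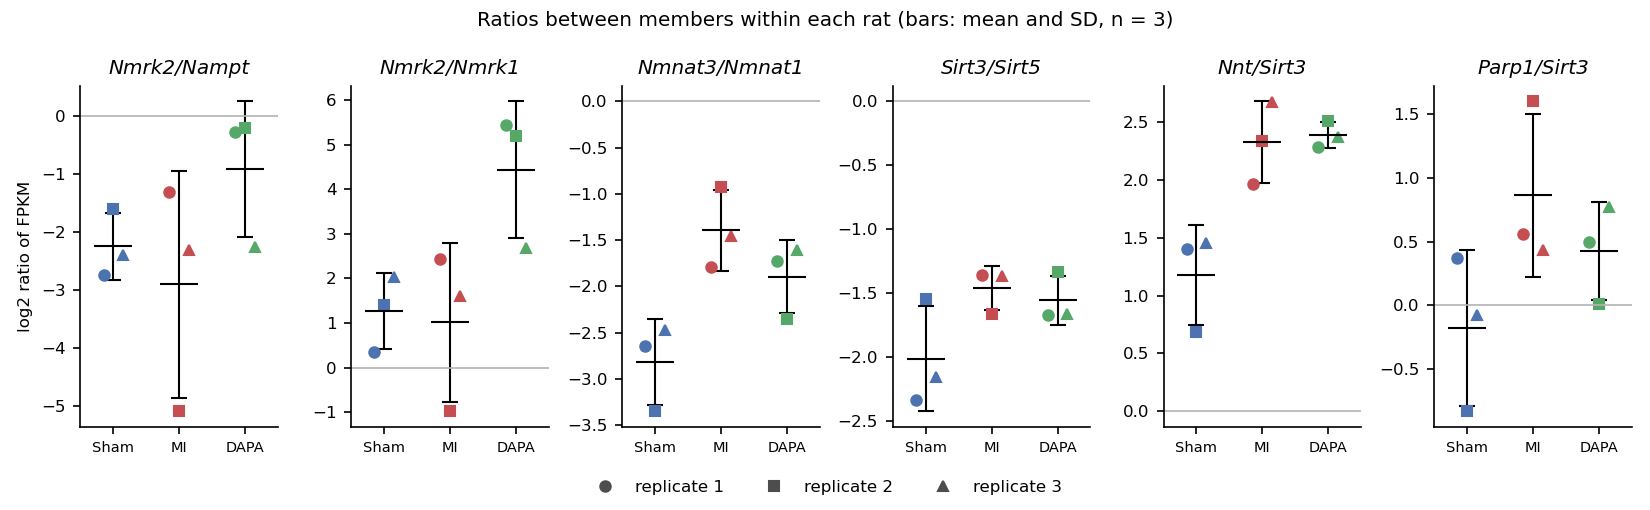
Log2 ratio of FPKM (y axis) between pairs of members in each rat, by group (x axis), with mean ± SD as bars; each panel has its own scale and the grey line marks equal levels. Nmrk2/Nmrk1 is highest in the DAPA rats, at 2.68 to 5.44, with few reads of Nmrk1 behind it. Nmnat3/Nmnat1 is lowest in the Sham rats, at -3.35 to -2.47.

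The order of the levels changed with infarction. In Sham, Sirt5 was the most abundant member at 54.6 FPKM, above Nnt at 30.8 without overlap. By mean Nmnat1 came next at 23.6, overlapping Nnt and Nampt. In MI, Nnt led at 48.0 FPKM, ahead of Cd38 at 25.0 without overlap. Nmnat1 had dropped to rank 7 by mean, overlapping Sirt3 and Nmrk2. Cd38, Sirt5 and Nampt did not differ beyond their spread in MI, at 25.0, 24.9 and 24.5 FPKM. In DAPA, Nnt led at 69.2, Sirt5 followed at 37.9 with overlap with Nampt, and Nmrk2 at 17.0 could not be separated from Parp1 or Sirt3. Nmrk1 was lowest in all groups, at 1.61, 1.61 and 0.746 FPKM.

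Around these members, a wider list of NAD genes was examined: 62 other genes were found in the table, of which 50 were tested in MI against Sham. Of the 50, 9 rose and 7 fell by limma (adjusted p under 0.05), no larger a share than the 19.5% higher and 19.5% lower of all genes. In DAPA against MI 0 of 50 passed. At an unadjusted p under 0.05, 6 were higher and 1 lower, against 8.49% of all genes for both directions together. In DAPA against Sham 13 of 49 rose and 5 fell, against 14.5% and 14.1% of all genes. Their median log2 fold change was 0.15, 0.06 and 0.25 in these comparisons, beside -0.01, -0.02 and 0.01 for all genes.

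Genes that handle nicotinamide and its precursors outside or on the way out of the cell rose after MI in 3 of 6 tested, and none fell, against 19.5% of all genes in each direction. Nt5e, the ectonucleotidase CD73, went from 7.69 ± 1.54 to 24.6 ± 4.11 FPKM (log2 fold change 1.56, limma adjusted p = 0.00180) and was 22.1 ± 2.84 in DAPA. Nnmt, which methylates nicotinamide for disposal, went from 4.33 ± 1.73 to 12.7 ± 2.74 FPKM (log2 fold change 1.39, adjusted p = 0.00750) and was 12.4 ± 1.24 in DAPA. Slc29a1, a nucleoside transporter, went from 14.4 ± 1.04 to 35.7 ± 14.8 FPKM (log2 fold change 1.17, adjusted p = 0.0209). Fibroblast and macrophage markers rose in the same hearts, and their part in these values was not tested.

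On the deposited scaling 3 of 4 other sirtuins tested fell after MI (19.5% of all genes) and none rose, a direction that, as for Sirt5, turned at the same summed FPKM (log2 fold changes of 0.82 for Sirt2, 0.47 for Sirt4 and 0.85 for Sirt7). Sirt2, a mainly cytosolic deacetylase, went from 65.1 ± 4.32 to 39.5 ± 3.11 FPKM (limma adjusted p = 0.00684), Sirt4, a mitochondrial member, from 4.74 ± 0.05 to 2.51 ± 0.62 (adjusted p = 0.0207), and Sirt7, a nucleolar member, from 18.1 ± 2.89 to 11.5 ± 0.68 (adjusted p = 0.0228). In DAPA they were at 41.2 ± 5.05, 2.59 ± 0.21 and 8.47 ± 1.31 FPKM, and all 3 were called lower than Sham. That direction also turned at the same summed FPKM, with log2 fold changes against Sham of 0.51, 0.24 and 0.08. Sirt7 was lower in DAPA than in MI (log2 fold change -0.41 ± 0.15, limma adjusted p = 0.558), the opposite direction to Sirt5.

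Of 12 other PARP family genes tested after MI, 3 rose and 2 fell, near the 19.5% of all genes in each direction; the 2 lower ones, Parp6 and Parp8, turned to 0.54 and 0.56 at the same summed FPKM. Parp3, linked to DNA break repair, went from 9.15 ± 1.49 to 19.2 ± 0.74 FPKM (limma adjusted p = 0.00389), and Parp6 from 27.2 ± 0.26 to 13.8 ± 1.86 (adjusted p = 0.00369). Among enzymes that remove ADP-ribose, Adprh (log2 fold change 0.83, adjusted p = 0.00502) and Parg (0.62, adjusted p = 0.0403) rose. Macrod1, a mitochondrial ADP-ribose hydrolase, fell from 44.5 ± 7.34 to 17.1 ± 9.08 FPKM (log2 fold change -1.43, adjusted p = 0.0178) and was 41.6 ± 20.0 in DAPA (at the same summed FPKM 0.06 in MI against Sham; against MI 1.26 ± 0.44, limma adjusted p = 0.558).

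Other sources of NADPH besides Nnt did not pass after MI (0 of 6 tested), and 3 of 6 rose in DAPA against Sham, where 14.5% of all genes did. Idh2, the mitochondrial isocitrate dehydrogenase, was at 153 ± 22.1 FPKM in Sham, 154 ± 79.3 in MI and 311 ± 88.8 in DAPA (against Sham 0.99, limma adjusted p = 0.0207). Of the NADH shuttle genes, 5 of 9 rose in DAPA against Sham, among them Got2, the mitochondrial aspartate aminotransferase, from 54.0 ± 8.22 to 124 ± 20.2 FPKM (log2 fold change 1.18, adjusted p = 0.00535). Cardiomyocyte markers were called higher in 10 of 17 in the same comparison, with a median log2 fold change of 1.03, and nuclear genes of mitochondrial content in 4 of 14, with a median of 0.46. The part of these in the values of Nnt, Idh2 and Got2 was not tested.

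**Figure D5:**
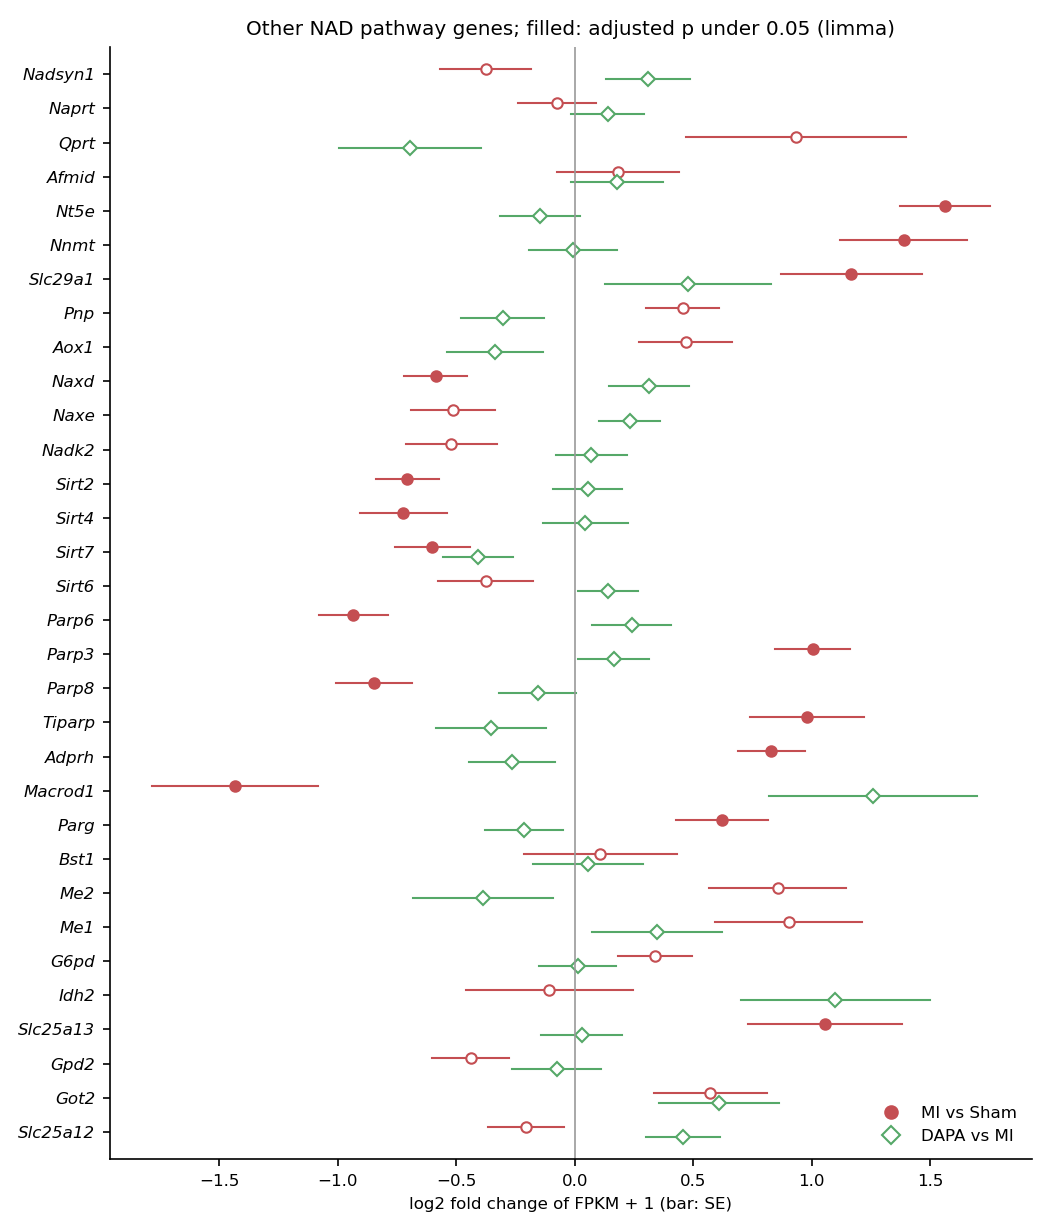
Log2 fold change of FPKM + 1 (x axis, bars are SE) of the other NAD genes named by rule, in MI against Sham (circles) and DAPA against MI (diamonds), with symbols filled where the limma adjusted p is under 0.05. Nt5e and Nnmt lie farthest to the right among the circles, Macrod1 farthest to the left, and no diamond is filled.

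Genes whose levels followed a member most closely were listed over the 9 rats and 14157 genes. The pattern most like Nnt was that of Maip1 (Pearson r = 0.992), then Myzap (0.976) and Sdha (0.974), a subunit of succinate dehydrogenase. For Nmrk2 it was Fgf1 (0.965), Mrpl47 (0.957) and Prph (0.956), and for Cd38 it was Necab3 (0.945), Bmp1 (0.942) and Fancm (0.941). The 9 rats fall into 3 groups and share the differences in tissue makeup above, so these values describe the table and carry no test.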

How the data were processed

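The authors deposited FPKM for 9 rats; per the file headers there is 1 column per sample, each called a rat here although its title names a pair of entries. Libraries were poly-A selected. The submitters' processing notes name HISAT2 2.0.5, StringTie 1.3.3b, featureCounts 1.5.0-p3 and DESeq2; the genome build is not given in the sources used here. FPKM is already divided by length and a library-size factor. Low values are whole multiples of 1 read, which returned whole reads (within 0.01) for 100% of the 18896 genes above 0 in 4 or more rats, used for depth and for limma-voom. A library can show a share of 3 reads of its total, 1.74e-05% to 2.21e-05%; this covers counting error only.

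Differences were tested with limma 3.58.1 in R 4.3.3 on log2(FPKM + 1), with a variance trend and no rats of the remaining group, genes at 1 FPKM or more in at least 3 rats, and Benjamini-Hochberg adjustment over all genes tested. This scale understates differences of low genes. The fit was tested on simulated data, where false calls exceeded the nominal share. Single values were compared by exact permutation. Alternatives changed the pseudocount, filter, scaling, model and rats; the replicate numbers do not mark shared animals. The labels give 3 biological replicates per group. The members and gene lists were chosen with earlier results of these data known. Other NAD genes were named as the 3 per list with the smallest p in MI against Sham and the 2 with the smallest p in DAPA against MI; like-patterned genes were the 3 with the highest Pearson r. Sequences are from RefSeq (GRCr8), and 9 of 10 members matched. Sirt1, Parp4, Macrod2 and Pgd were not analysed here.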

Additional observations from a re-analysis of the deposited data

How the results depend on the processing

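The count of members called changed with the rule and the scaling. Counts are at an adjusted p under 0.05 unless another rule is named. In MI against Sham it was 5 at an unadjusted p, 7 at the same summed FPKM and 5 when scaled to all recovered reads, and 2 to 3 with 1 rat left out. In DAPA against MI it was 0 with all rats and 0 with 1 rat left out. There it was 1 with the study's rule and 3 at an unadjusted p, where leaving out 1 rat gave 0 to 4. In DAPA against Sham it was 3 with the study's rule, 3 to 4 with 1 rat left out, 7 at the same summed FPKM (7 higher) and 7 when scaled to all recovered reads (6 higher, 1 lower). Members apart relative to the cardiomyocyte markers ranged from 2 to 5 with 1 rat left out in MI against Sham and from 2 to 8 in DAPA against MI, where the marker median in place of the mean gave 1. Leaving out a rat cannot lower this count, so the upper ends do not measure its stability. Under a replicate block 3, 0 and 4 members were called in MI against Sham, DAPA against MI and DAPA against Sham. Same-numbered rats did not deviate together in all pairs (correlations of -0.01 to 0.07, -0.30 to 0.03 and -0.003 to 0.195), so the numbers were not taken as pairs.

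Log2 fold changes that turned direction were as follows, each listed first at the same summed FPKM and then scaled to all recovered reads. Nmnat3 gave 0.64 and 0.33 in MI against Sham, -0.27 and -0.16 in DAPA against MI and 0.38 and 0.17 in DAPA against Sham. Sirt3 gave 0.87 and 0.47 in MI against Sham and 1.01 and 0.74 in DAPA against Sham. Sirt5 gave 0.64 and 0.35 in DAPA against Sham, and 0.40 at the same summed FPKM in MI against Sham. Parp1 gave -0.28 and -0.14 in DAPA against MI, and Nampt -0.14 at the same summed FPKM. Nmrk2 in MI against Sham was -0.026 with a pseudocount of 0.1 and -0.018 by limma-voom. Nmnat3 in DAPA against MI was -0.031 without the mitochondrial genome and -0.0023 with median-of-ratios scaling. With 1 rat left out, Nmrk1 ranged from -0.23 to 0.29 and Nmrk2 from -0.38 to 0.81 in MI against Sham, Nmnat3 from -0.064 to 0.078 and Parp1 from -0.041 to 0.21 in DAPA against MI, and Sirt3 from -0.30 to 0.18 in DAPA against Sham. The cause was not tested. Nmrk1 rested on 10 to 59 reads per library, which limits what its values can show.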
